A study of Cavia porcellus with 72 samples.

Results

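The genes described here encode the proteins that carry a signal from a receptor to cyclic nucleotides: the alpha, beta and gamma subunits of heterotrimeric G proteins, the regulators of G protein signalling (RGS), the adenylyl cyclases (ADCY) and the phosphodiesterases (PDE). Membership was set by gene symbol alone, from the prefixes GNA, GNB, GNG, RGS, ADCY and PDE, though earlier results of these data were known. Of 11927 genes listed in any of the 3 count tables, 74 carried such a symbol, with 73 in the F1 table, 70 in the F2 table, 72 in the F3 table and 69 in all 3. After the filter on low counts 71 genes of the set were tested in F1, 70 in F2, 71 in F3 and 69 over all generations together. GNB3 (1 to 13 reads per library in F1 and F3) and RGS18 (0 to 8 reads in F1) had too few reads to be tested, GNG8 and RGS12 were not analysed in F2, and Gnat1 was tested in F2 alone.

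The study asked whether treatment of a pregnancy with synthetic glucocorticoid (sGC) left a trace in hippocampal transcription over 3 generations of the paternal line. Pregnant Dunkin-Hartley guinea pigs (F0) received repeated courses of betamethasone or, as controls, saline. F1 animals were the offspring of those pregnancies, F2 animals were fathered by F1 males, and F3 animals descended from F2 males, with dams from outside the experiment. RNA from the hippocampus of females at postnatal day 40 was sequenced from 6 control and 5 sGC animals in F1, 6 and 6 in F2, and 6 and 7 in F3. The females came from independent mothers, and the F1 females were the ones exposed as fetuses.

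A G protein is switched on when an activated receptor makes its alpha subunit exchange GDP for GTP and part from the beta-gamma pair. Gs-type alpha subunits stimulate adenylyl cyclase, Gi/o-type subunits inhibit it, and Gq-type subunits activate phospholipase C beta. RGS proteins shorten the signal by speeding GTP hydrolysis, cyclases make cAMP and phosphodiesterases break down cAMP, cGMP or both. In the hippocampus, cyclases stimulated by calcium are known for their part in synaptic plasticity and memory.

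The 36 libraries held between 13507449 and 19767033 counted reads, and 1.10 to 1.22% of those reads fell on the set. Levels are given as CPM, the read counts of a library scaled to one common total, after TMM scaling within a generation, and are compared between animals, not between genes. Summed hippocampal neuron markers lay between 578 and 688 CPM in all libraries, with 6 of 8 listed markers in the tables. Striatal neuron markers, with 7 of 10 in the tables, summed to 87.2 to 134 CPM. These sums hold different genes and are not compared with each other. Astrocyte markers moved with the groups in F1 and F3, and less in F2. Their summed level was 8308 to 10853 CPM in F1 controls and 9481 to 15487 CPM in F1 sGC animals, with the highest value in sGC replicate 4, and it was 9184 to 10165 CPM in F3 controls and 10382 to 11931 CPM in F3 sGC animals, without overlap. All 8 tested astrocyte markers were on the higher side in F1 and in F3, and 3 of them (GLUL, S100B and SLC1A2) passed the test in F3, and 0 in F1. In F2 the astrocyte sums were 10410 to 12039 CPM in controls and 10441 to 12589 CPM in sGC animals. There 7 of 8 markers were on the higher side, with 0 called. All 7 tested meningeal fibroblast markers were on the lower side in F1 sGC animals, with sums of 58.6 to 116 CPM against 86.3 to 236 CPM in controls and 2 of 7 (DCN and LUM) called. In F3 all 7 were on the higher side, with sums of 97.1 to 190.99 CPM against 95.6 to 149.9 CPM and 0 called. Microglia markers were also on the higher side in F3 in 7 of 7 cases, at 237 to 282 CPM against 198 to 270.5 CPM, with 0 called. In whole tissue, fewer cells of a type and less RNA per cell cannot be told apart, and the part of these cell types in the results that follow was not tested. The 5 libraries with the labelled numbers 32 to 36 were all from sGC animals (F1 sGC replicates 4 and 5, F2 sGC replicate 6, F3 sGC replicates 5 and 6), so this run of numbers and the treatment cannot be told apart where they carry a result.

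In F1, GNAQ and PDE3A were higher in sGC animals than in controls, and no gene of the set was lower past the threshold of an adjusted p of 0.05 (edgeR quasi-likelihood test, Benjamini-Hochberg over all genes tested). The background for this comparison was 237 of 11377 genes called, or 2.08%, and 1.63% called higher, against 2 of 71 in the set. At an unadjusted p below 0.05, 17 genes of the set passed, which was 23.9% of those tested, and 19.6% of all genes did so. The CPM ranges of the groups did not overlap for 4 genes of the set (GNAQ, PDE3A, GNAS and GNB2), or 5.63%, against 4.41% of all genes. More of the set leaned up than down in F1, with 44 genes higher and 27 lower and a median log2 fold change of 0.04 against -0.01 over all genes. In F3 these counts were 39 and 32 with a median of 0.02 against 0.00 over all genes, and in F2 38 and 32 with a median of 0.01 against 0.00. By family, 6 alpha subunit genes were higher and 6 lower in both F1 and F3. Gamma subunit genes were 5 higher and 5 lower in F1 and 7 and 3 in F3. RGS genes were 9 higher and 7 lower in both, and cyclases 6 higher and 2 lower in both, before any test. The plot of changes by family gives each gene's log2 fold change.

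**Figure D1:**
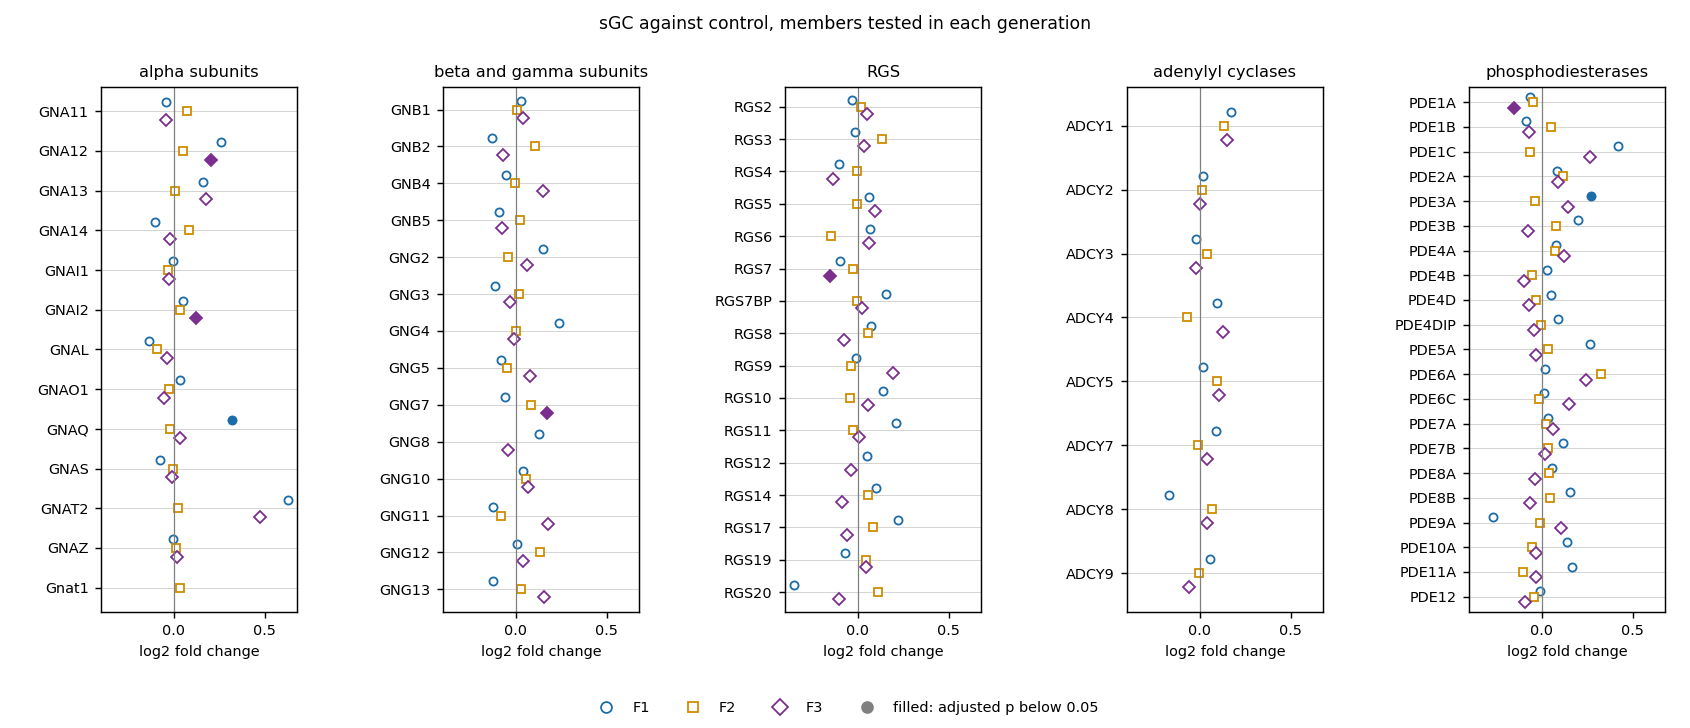
Log2 fold change of sGC against control (horizontal axis) for every gene of the set tested, by family (panels), in F1 (circles), F2 (squares) and F3 (diamonds). Filled symbols passed an adjusted p of 0.05: GNAQ and PDE3A in F1, GNA12, GNAI2, GNG7, RGS7 and PDE1A in F3, and none in F2.

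GNAQ encodes the alpha subunit of Gq, which couples receptors such as metabotropic glutamate and muscarinic receptors to phospholipase C beta. Its level in the 6 F1 controls ran from 51.5 CPM to 61.9 CPM with a median of 58.2 CPM. In the 5 F1 sGC animals it was 75.8, 72.1, 75.65, 66.2 and 67.3 CPM. Every sGC animal lay above every control, with a log2 fold change of 0.32 (SE 0.058, adjusted p = 0.0181, edgeR). It was past the threshold after each of the 11 libraries was left out in turn, with adjusted p between 0.0107 and 0.0481. Without libraries 32 to 36 the log2 fold change was 0.38. With the replicate number as a block GNAQ was not called (adjusted p = 0.0762, edgeR). Neither GNA11 (log2 fold change -0.04) nor GNA14 (-0.10), the other Gq-type subunits measured, passed in F1.

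The test of the difference between generations set GNAQ in F1 apart from F2 and not from F3. In F2 the controls had a median of 78.5 CPM and the sGC animals one of 77.7 CPM, with ranges of 74.3 to 83.3 and 72.2 to 82.7 CPM that overlapped. In F3 the medians were 62.9 CPM in controls and 64.1 CPM in sGC animals. The effect in F2 was lower than that in F1 by a log2 difference of -0.35 (SE 0.0688, adjusted p = 0.0270, edgeR). GNAQ was the single gene of the set called in this comparison, where 33 genes of 11390 (0.29%) were called. The effect in F3 differed from that in F1 by -0.29 (adjusted p = 0.0724, edgeR), in a comparison that called no gene at all (0%). In it, 14 genes of the set and 1490 of all genes had an unadjusted p below 0.05. The likelihood ratio test called 2 genes of the set and DESeq2 called 1, and their calls over all genes are not given here. Between F3 and F2 the call share was also 0%, with 3 genes of the set and 1034 of all genes at an unadjusted p below 0.05 and 0 genes called by the likelihood ratio test or DESeq2. Without F1 sGC replicate 4 the comparison of F3 with F1 called 2 genes of the set, GNAQ and PDE9A, beside 454 of all genes, and without libraries 32 to 36 it called 3, GNAQ, PDE9A and GNG13, beside 431 of all genes. Leaving out F2 control replicate 2 or 4, or F2 sGC replicate 4 or 5, took the adjusted p of the F2 difference to between 0.0542 and 0.0656.

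Over the 36 libraries, the genes of the set whose levels varied most like those of GNAQ within groups were RGS7BP (Pearson r = 0.55, Spearman coefficient 0.50), PDE1A (r = 0.44, Spearman coefficient 0.39) and ADCY9 (r = 0.42, Spearman coefficient 0.43). Without the 2 libraries farthest from the GNAQ median, r was 0.47, 0.35 and 0.38. These values describe log2 CPM centred on each group, the libraries share their depth scaling, and no test was made.

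PDE3A hydrolyses cAMP and is inhibited by cGMP. In F1 its control levels ran from 12.8 to 15.15 CPM with a median of 14.1 CPM. The 5 sGC animals had 16.6, 18.1, 16.1, 17.2 and 16.2 CPM, all above the highest control. This was a log2 fold change of 0.27 (SE 0.0612, adjusted p = 0.0411, edgeR). The call was lost after 9 of the 11 single omissions, those of each control and of sGC replicates 2, 3 and 5, where the adjusted p lay between 0.0509 and 0.0854, and the log2 fold change between 0.24 and 0.30. It was also lost without libraries 32 to 36 (adjusted p = 0.0798). In F2 the log2 fold change of PDE3A was -0.04, and in F3 it was 0.15, both short of the threshold.

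**Figure D2:**
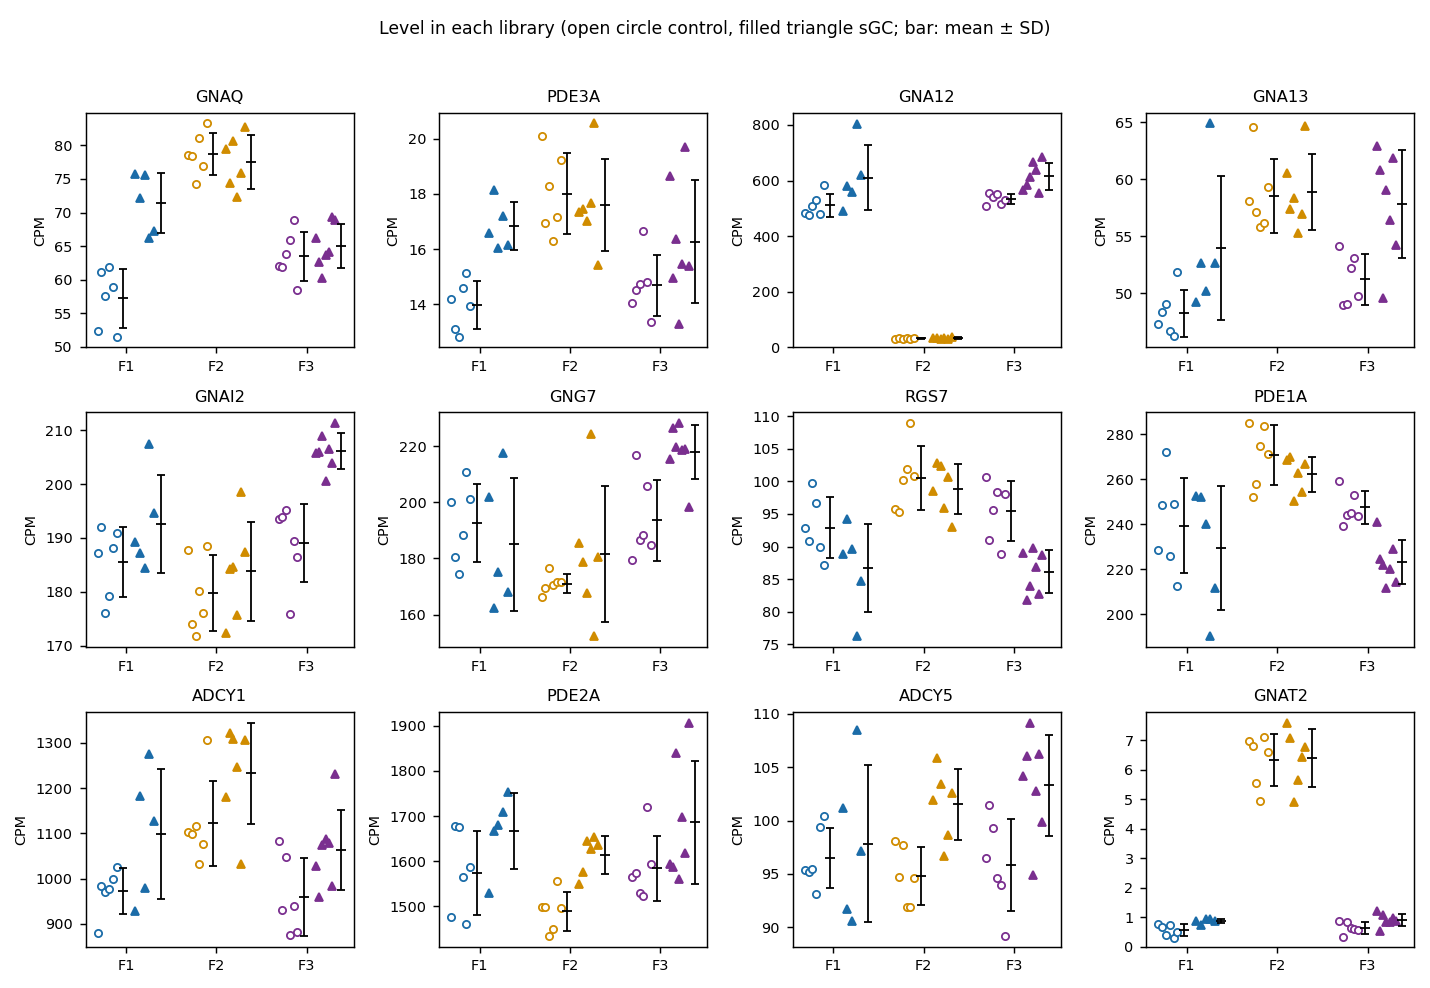
Level in CPM (vertical axis, scaled by TMM within a generation, not starting at 0 in most panels) of 12 genes of the set in each library, for controls (open circles) and sGC animals (filled triangles) of F1, F2 and F3, with the mean and SD of each group beside the points. GNAQ and PDE3A separate the F1 groups, GNAI2 separates the F3 groups, and GNA12 and GNAT2 sit at a different level in all F2 libraries.

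In F3, 5 genes of the set passed the threshold, against a background of 573 of 11359 genes (5.04%), of which 2.17% of all genes were higher and 2.87% lower. GNA12, GNAI2 and GNG7 were higher in sGC animals, and PDE1A and RGS7 were lower. These calls count F3 sGC replicate 5 as 1 animal, as labelled. Its median correlation with the rest of its group was 0.998, the highest of all 36 libraries, and the next highest was 0.996. Whether its profile is independent of the other F3 sGC animals was not tested. Without it 1 gene of the set, PDE1A, was called in F3, beside 288 of all genes. Unadjusted p-values below 0.05 were found for 12 of 71 genes, or 16.9%, against 21.1% of all genes. The summed astrocyte markers separated the same F3 groups, and meningeal, microglia and mural markers were all on the higher side there. Their part in these 5 calls was not tested. One gene of the set, GNAI2, had groups that did not overlap, which was 1.41% against 2.71% of all genes.

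GNAI2 encodes a Gi-type alpha subunit, which inhibits adenylyl cyclase. In F3 controls it ran from 176 to 195 CPM with a median of 191.5 CPM, and in sGC animals from 201 to 211 CPM with a median of 206 CPM. All 7 sGC animals were above all 6 controls, with a log2 fold change of 0.13 (SE 0.0296, adjusted p = 0.0222, edgeR). The sGC animals of F1 and F2 had GNAI2 differences of 0.05 and 0.03 on the log2 scale, neither called. The call was lost without F3 sGC replicate 5 (adjusted p = 0.0550) and without libraries 32 to 36 (adjusted p = 0.0635). Among the other Gi/o-type subunits, GNAO1, the one with the most reads, had log2 fold changes of 0.04, -0.03 and -0.05 over F1 to F3, and neither GNAI1 nor GNAZ passed in any generation.

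GNA12 and GNA13, the 2 alpha subunits of the G12 type, were on the higher side in F1 and F3, and GNA12 passed the test in F3. GNA12 in F3 ran from 509 to 555.2 CPM with a median of 536 CPM in controls and from 554.9 to 683 CPM with a median of 614 CPM in sGC animals. Of the 7 sGC animals 6 were above the highest control, with a log2 fold change of 0.20 (SE 0.0476, adjusted p = 0.0204, edgeR), lost without F3 sGC replicate 5 (adjusted p = 0.0516). In F1 the 5 sGC animals had GNA12 levels of 490.1, 580.5, 559, 805 and 620.4 CPM, against 478 to 584 CPM in controls, with a log2 fold change of 0.26 that did not pass (adjusted p = 0.185). The value of 805 CPM belonged to sGC replicate 4, the animal with the highest astrocyte markers. GNA13 in F3 ran from 48.95 to 54.15 CPM in controls and from 49.6 to 62.9 CPM in sGC animals, 6 of 7 of which were above the highest control, and its log2 fold change of 0.18 missed the threshold (adjusted p = 0.0579).

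GNG7, a gamma subunit, was higher in F3 sGC animals at 198 to 228 CPM with a median of 219 CPM, against 180 to 217 CPM with a median of 187.5 CPM in controls. The groups overlapped, with 5 of 7 sGC animals above the highest control. The log2 fold change was 0.17 (SE 0.0451, adjusted p = 0.0379, edgeR). The call was lost in 9 of 13 single omissions, with adjusted p up to 0.0810, and without libraries 32 to 36 (0.0982). In F1 the log2 fold change was -0.06 and in F2 it was 0.09, and neither passed.

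Among the other beta and gamma subunits, GNB2 was at 149.6, 154.6, 159.8, 139.5 and 159.4 CPM in F1 sGC animals, each below the control range of 161 to 177 CPM, with an adjusted p of 0.126. In F2 it was on the higher side, with a log2 fold change of 0.11 against -0.13 in F1, and the difference between these effects, 0.23, missed the threshold (adjusted p = 0.0535). GNG4 was at 45.3, 50.5, 43.0, 52.72 and 52.75 CPM in F1 sGC animals against 37.5 to 45.75 CPM in controls, a log2 fold change of 0.24 (adjusted p = 0.0894). GNB1 and GNG2, the beta and gamma genes with the most reads, did not pass in any generation. Their log2 fold changes were 0.03, 0.01 and 0.04 for GNB1 and 0.15, -0.04 and 0.06 for GNG2.

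GNAS, which encodes the Gs alpha subunit that stimulates cyclases, did not pass the test in any generation. In F1 it was below all controls in every sGC animal, at 1714, 1693, 1636, 1699 and 1701 CPM against 1763 to 1825 CPM. The log2 fold change was -0.08 with an adjusted p of 0.313. GNAL, the olfactory Gs-type subunit that is also used in the striatum, had log2 fold changes of -0.14, -0.09 and -0.04 in F1, F2 and F3, with none called. Summed striatal markers in F1 were 104 to 129 CPM in controls and 87.2 to 116 CPM in sGC animals, with 5 of 6 tested markers on the lower side and TAC1 called.

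RGS7, which with the beta subunit GNB5 speeds GTP hydrolysis on Gi/o-type subunits in neurons, was the RGS gene that was called. In F3 controls it ran from 88.8 to 101 CPM with a median of 96.9 CPM, and in sGC animals from 81.8 to 89.7 CPM with a median of 86.9 CPM. All 7 sGC animals were below the control mean and 5 were below every control, a log2 fold change of -0.15 (SE 0.0369, adjusted p = 0.0275, edgeR). The call was lost in 6 of 13 single omissions (F3 control replicates 1, 3, 4 and 6 and sGC replicates 2 and 5), with adjusted p up to 0.0641, and without libraries 32 to 36 (0.0954). Its binding protein RGS7BP, which anchors the complex at the membrane, had a log2 fold change of 0.03 in F3 and of 0.15 in F1, neither called. GNB5 had a log2 fold change of -0.08 in F3, not called.

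The rest of the RGS family gave no call. RGS14 (R12 family, abundant in hippocampal CA2 neurons) had log2 fold changes of 0.10, 0.06 and -0.09 over F1, F2 and F3. RGS20 (RZ family) had a log2 fold change of -0.35 in F1 and an SE of 0.197. RGS9, better known from striatal neurons, was at 0.20 in F3 with an adjusted p of 0.217. RGS5, a marker of pericytes and smooth muscle, ran from 133 to 146.1 CPM in F3 sGC animals and from 103 to 167 CPM in F3 controls, a log2 fold change of 0.09 that was not called. Over the 8 markers of those mural cells the median log2 fold change was 0.17 in F3, with all 8 on the higher side and PDGFRB called.

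PDE1A, a calcium-calmodulin-dependent enzyme that hydrolyses both cyclic nucleotides, was lower in F3 sGC animals. Controls ran from 239 to 259 CPM with a median of 245 CPM and sGC animals from 212 to 241 CPM with a median of 222 CPM. All 7 sGC animals were below the control mean and 6 were below every control, a log2 fold change of -0.15 (SE 0.0334, adjusted p = 0.0168, edgeR), and it was past the threshold after each of the 13 single omissions. Without libraries 32 to 36 PDE1A and GNA12 were the only genes of the set still called in F3. Both lost their call with the replicate number as a block and when all generations were fitted together. There the adjusted p was at most 0.0907 for PDE1A and 0.0975 for GNA12 (edgeR). In F1 the log2 fold change of PDE1A was -0.06, and in F2 it was -0.05.

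**Figure D3:**
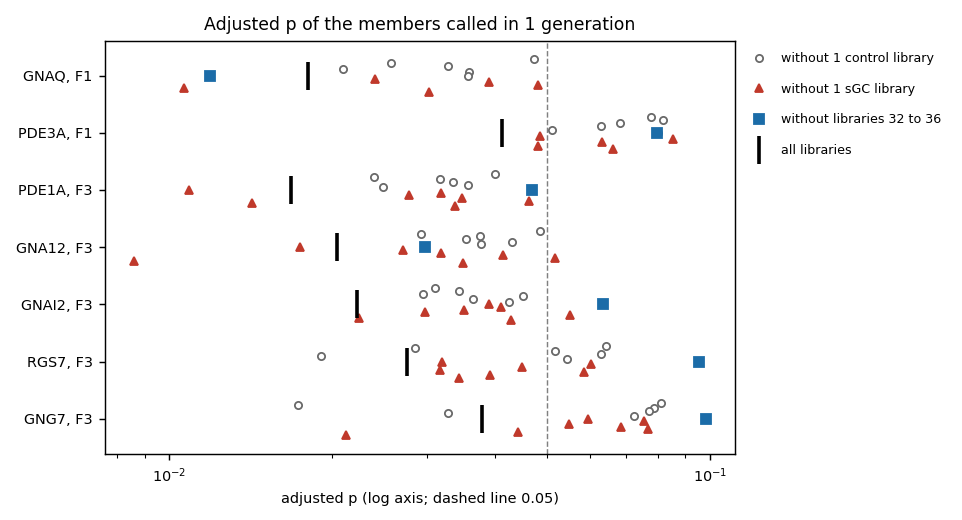
Adjusted p (horizontal log axis, dashed line at 0.05) of the 7 genes called within a generation, with all libraries (black bars), after leaving out 1 control library (circles) or 1 sGC library (triangles), and without libraries 32 to 36 (squares). GNAQ in F1 and PDE1A in F3 stay left of the line after every single omission, and PDE3A and GNG7 cross it in 9 omissions each. Fits with the replicate block or of all generations together are not shown.

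In F2 no gene of the set was called, nor was any of all 11414 genes (0%). With an unadjusted p below 0.05 stood 5 of 70 genes of the set (7.14%) and 758 of all genes (6.64%). DESeq2 called 1 gene of the set, PDE2A (adjusted p = 0.0101), and the likelihood ratio test called 0. Calls over all genes by these alternatives are not given here for F2, so PDE2A has no background under DESeq2. No gene of the set had groups without overlap, against 0.403% of all genes. PDE2A, which hydrolyses cAMP and is stimulated by cGMP, had the smallest p in the set. Its F2 controls ran from 1434 to 1555 CPM with a median of 1498 CPM and its F2 sGC animals from 1550 to 1655 CPM with a median of 1632 CPM. All 6 sGC animals were above the control mean and 5 were above every control, with a log2 fold change of 0.12 and an edgeR adjusted p of 0.409. ADCY5, a cyclase that calcium inhibits, was in F2 at 91.9 to 98.1 CPM in controls and 96.6 to 106 CPM in sGC animals, with a log2 fold change of 0.10 and an adjusted p of 0.678. The remaining F2 genes with the smallest p were PDE4B (-0.05), GNAL (-0.09) and RGS6 (-0.15) on the lower side.

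The adenylyl cyclases gave no call within a generation. ADCY1, the calcium-stimulated cyclase best known from hippocampal plasticity, was on the higher side in all 3, with log2 fold changes of 0.18, 0.14 and 0.15. In F1 the 5 sGC animals were at 929, 1182, 980, 1275 and 1126 CPM against 879 to 1025 CPM in controls. In F2 the medians were 1101 CPM in controls and 1276 CPM in sGC animals, and in F3 they were 935 and 1075 CPM, with overlapping ranges. ADCY8, the other calcium-stimulated cyclase named here, was at 15.6, 16.4, 13.3, 15.3 and 16.6 CPM in F1 sGC animals, all below the control mean of 17.3 CPM, with a log2 fold change of -0.17 (adjusted p = 0.204). ADCY2 (0.02, 0.01 and 0.00) and ADCY9 (0.06, 0.00 and -0.06) had no call in any generation.

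Of 21 tested genes with a PDE symbol, which include PDE4DIP and PDE12, 2 proteins that do not hydrolyse cyclic nucleotides, 17 were on the higher side in F1, 10 in F2 and 9 in F3, with 1 called in F1, 0 in F2 and 1 in F3, against 2.08%, 0% and 5.04% of all genes. Their median log2 fold changes were 0.08 in F1 and -0.03 in F3, against -0.01 and 0.00 over all genes. All 7 cAMP-specific enzymes tested were on the higher side in F1, with log2 fold changes between 0.03 and 0.16 and none called, and in F3 3 of the 7 were. PDE4A, the one with the most reads, had log2 fold changes of 0.08, 0.07 and 0.12. PDE4B in F3 was at 83.1 to 86.9 CPM in controls and 76.6 to 88.6 CPM in sGC animals, 6 of 7 of which were below every control (log2 fold change -0.10, adjusted p = 0.111). The exception was sGC replicate 1, and without it the adjusted p was 0.0235. PDE9A, a cGMP-specific enzyme, was at 20.4, 15.2, 18.1, 19.9 and 17.8 CPM in F1 sGC animals against 20.3 to 23.6 CPM in controls, a log2 fold change of -0.27 (adjusted p = 0.0811), and on the higher side in F3 at 0.11. The difference of 0.37 between these effects missed the threshold (adjusted p = 0.0909). PDE10A and PDE1B, known from the striatum, had log2 fold changes of 0.14 and -0.09 in F1, in opposite directions and not called, beside the lower striatal markers. PDE4DIP, a scaffold named for its binding to PDE4D, was not called in any generation.

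Averaged over the 3 generations in one fit of all 36 libraries, 9 genes of the set were called, 8 higher and 1 lower, of 69 tested. The background was 971 of 11390 genes (8.53%), with 5.07% higher and 3.46% lower. The 8 higher genes were GNAQ, ADCY1, PDE2A, GNA12, GNAI2, GNA13, ADCY5 and GNAT2, and the lower gene was RGS7. ADCY1 had a mean log2 fold change of 0.16 (SE 0.0412, adjusted p = 0.0186, edgeR), PDE2A one of 0.10 (SE 0.0264, adjusted p = 0.0190) and ADCY5 one of 0.08 (SE 0.0222, adjusted p = 0.0264). By generation, ADCY1 was at 0.18, 0.14 and 0.15, PDE2A at 0.08, 0.12 and 0.09, and ADCY5 at 0.02, 0.10 and 0.11. GNAQ had a mean of 0.11 (adjusted p = 0.0113) over 0.32, -0.02 and 0.03. GNA12 had one of 0.17 (adjusted p = 0.0191) over 0.26, 0.05 and 0.20, and GNA13 one of 0.12 (adjusted p = 0.0231) over 0.16, 0.01 and 0.18. GNAI2 was at 0.07 (adjusted p = 0.0217) and RGS7 at -0.09 (adjusted p = 0.0242).

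**Figure D4:**
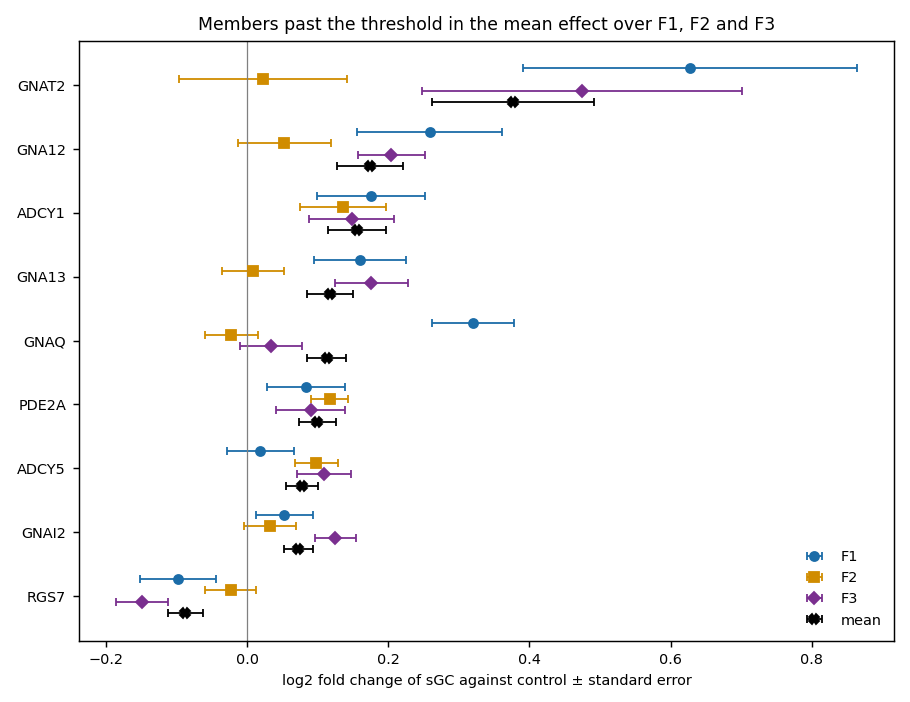
Log2 fold change of sGC against control (horizontal axis, bars are 1 standard error) of the 9 genes of the set called in the mean effect, in F1, F2 and F3 and as their mean over 36 libraries. ADCY1 and PDE2A lie to the right of 0 in each generation, RGS7 lies to the left, and GNAQ is far from 0 in F1 alone.

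GNAT2, a cone photoreceptor alpha subunit, had 6 to 17 reads per library in F1 and 5 to 18 in F3, or 0.31 to 1.22 CPM, so that its mean log2 fold change of 0.38 (SE 0.115, adjusted p = 0.0355, edgeR) rested on few reads. The call was lost in 8 of 36 single omissions, the F1 control replicates 3 and 5, F1 sGC replicate 4, F2 control replicate 3, F2 sGC replicate 6, F3 control replicates 2 and 6 and F3 sGC replicate 1, with adjusted p up to 0.0655. In F2 its level was 4.90 to 7.58 CPM in all animals.

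Without libraries 32 to 36, 1 gene of the set, GNAQ, was called, and the mean effect of ADCY1 was 0.12 (adjusted p = 0.175), of PDE2A 0.09 (0.149), of GNA12 0.11 (0.162) and of GNA13 0.07 (0.245). Over all genes the calls went from 971 to 54 in that fit. Without F1 sGC replicate 4 alone 6 genes of the set and 539 of all genes were called, and RGS7 (adjusted p = 0.0504), ADCY5 (0.0584) and GNAT2 (0.0650) were lost.

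The F2 libraries also stood at different levels from the rest for a small share of genes, in controls and sGC animals alike. Under one scaling of all 36 libraries, the F2 control median was more than 2-fold away from those of both F1 and F3 for 406 of 11390 genes (3.56%), against 1 gene for F1 and 3 for F3. In the set these were GNA12 (508, 31.9 and 542 CPM in F1, F2 and F3 controls), GNAT2 (0.60, 6.63 and 0.63), GNG4 (42.1, 113 and 45.5) and RGS20 (50.3, 16.02 and 39.9). All 69 genes had an F3 control median within 1.5-fold of F1, and 64 had such an F2 median. The cause was not tested. F2 libraries enter the mean effect and the differences that involve F2.

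**Figure D5:**
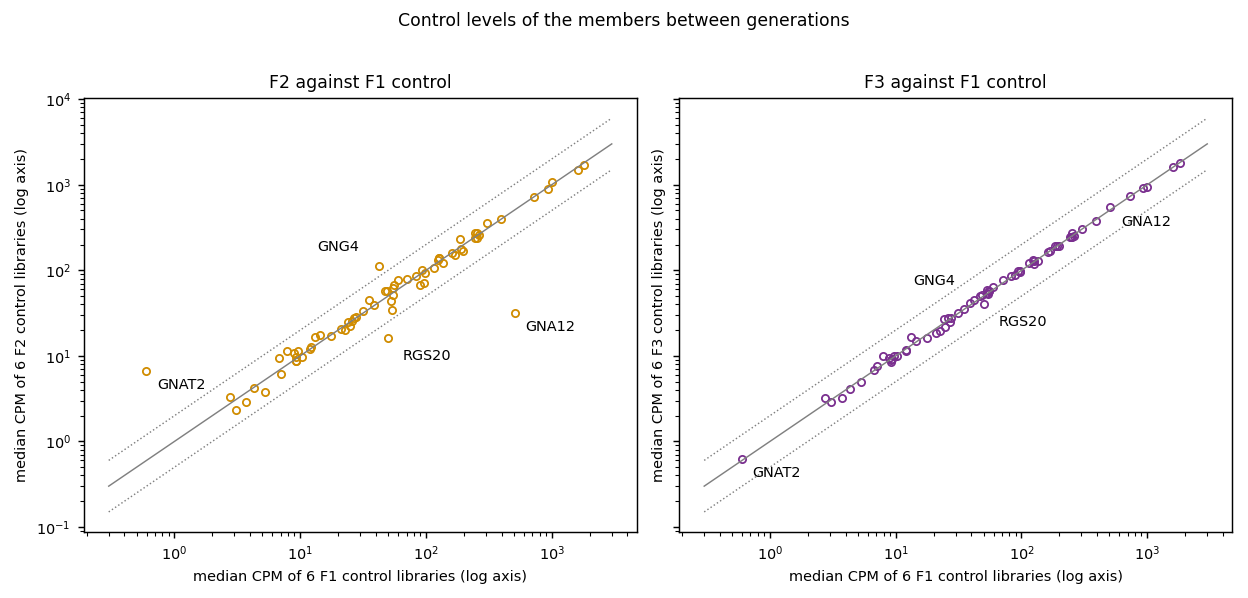
Median CPM of the 6 control libraries of F2 (left) and F3 (right) against that of the 6 F1 controls (log axes) for the 69 genes of the set found in all tables, with the line of equality and dotted lines at 2-fold. GNA12, GNAT2, GNG4 and RGS20 lie outside the 2-fold lines in F2, and no gene does in F3.

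With the F2 libraries left out, the mean effect of F1 and F3 again called 9 genes of the set, 7 of them shared, where 1242 of 11466 genes (10.8%) were called. PDE2A (adjusted p = 0.113) and ADCY5 (0.138) were lost, and PDE3A at 0.21 (adjusted p = 0.0154) and GNB2 at -0.10 (adjusted p = 0.0224) were gained. GNA12 then stood at 0.24 (SE 0.0571, adjusted p = 0.0125, edgeR), GNA13 at 0.17 (adjusted p = 0.0139), GNAQ at 0.18 (adjusted p = 0.00521) and RGS7 at -0.12 (adjusted p = 0.0195). Without both F2 and libraries 32 to 36, GNAQ alone was called.

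Around the set, 41 further genes of the cyclic nucleotide and G protein pathway were tested in each generation. The list was chosen with earlier results of these data known, so its counts cannot be weighed against the shares of all genes. In F1, 5 were higher and 1 lower, where 2.08% of all genes were called, in F2 0 (0%), and in F3 3 were higher and 1 lower, where 5.04% of all genes were called. Over all genes, the calls in F1 went from 237 to 97 and those in F3 from 573 to 317 without libraries 32 to 36. GUCY1A2, a subunit of the nitric oxide receptor that makes cGMP, was at 97.2 to 110 CPM in F1 sGC animals against 75.1 to 90.2 CPM in controls (log2 fold change 0.30, adjusted p = 0.00940, edgeR). The anchoring proteins AKAP9 (0.20, adjusted p = 0.0227) and AKAP6 (0.22, adjusted p = 0.0337), which hold protein kinase A in place, also had F1 groups that did not overlap. The other F1 calls were GRK3 (0.19, adjusted p = 0.0494, edgeR) and CREB1 (0.28, adjusted p = 0.0494), higher, and CREM (-0.43, adjusted p = 0.0471), lower. Other nitric oxide receptor subunits, GUCY1A3 (-0.27, adjusted p = 0.189, edgeR) and GUCY1B3 (-0.07, adjusted p = 0.509), were on the lower side in F1 and not called. In F3, PLCB3, a phospholipase C beta that Gq activates, was at 37.1 to 42.4 CPM against 31.5 to 35.7 CPM in controls (0.22, adjusted p = 0.00902). PRKAR1B, a regulatory subunit of protein kinase A in neurons, was lower at 512 to 588 CPM against 616 to 636 CPM (-0.17, adjusted p = 0.00902). ARRB1, a beta-arrestin that ends receptor signalling, was at 383 to 417 CPM against 353 to 372 CPM (0.12, adjusted p = 0.0166). GRK5 was the other F3 call, on the higher side (0.18, adjusted p = 0.0350, edgeR). None of the called pathway genes named here was called in more than 1 generation.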

How the data were processed

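Hippocampal RNA of 36 animals was sequenced from poly(A)-enriched TruSeq libraries, and GEO's labels gave the groups. Values are whole counts for each gene in each animal, as deposited by the authors and not normalized. TopHat2 is named in the submitters' processing notes, and the read counter, genome build and annotation were not given in the sources used here. The authors' own comparison columns were left out, as were methylation tables, which hold nothing but such a comparison. Low counts were removed with filterByExpr and libraries scaled by TMM. Groups were then compared per generation with the quasi-likelihood test of edgeR (version 4.0.16, with limma 3.58.1 under R 4.3.3), and p-values were adjusted over all genes tested, with a threshold of 0.05. DESeq2 1.42.0 served as an alternative and matplotlib 3.10.9 drew the figures. The mean effect and the differences between generations came from 1 fit of all libraries, on genes found in every table. The tests within a generation and of F3 against F1 were checked on simulated data, with planted changes larger than the sGC effects printed here. The mean effect and the difference of F2 against F1 were not simulated.

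The genes and lists were chosen with earlier results of these data known. Named genes were those called, the 3 higher and 3 lower with the smallest p in each generation, the most read gene of each role, genes known from striatum or mural cells, up to 3 called pathway genes per generation, and the 3 genes most like the one with the smallest p in the mean effect. Others were named after their values were seen. Alternatives were edgeR's likelihood ratio test, DESeq2, its size factors, no filter, the replicate number as a block, libraries 32 to 36 left out, 1 fit of all generations and single omissions. Fits without F2 were added after the F2 levels were seen. Totals of 13507449 to 19767033 reads leave genes with few reads, such as GNAT2, with wide errors. Median correlations between libraries of a group were at least 0.990, and every pair of libraries within a group differed by more than sampling noise. The highest was 0.998, in F3 sGC replicate 5, and the next was 0.996, in F1 control replicate 6. Why F3 sGC replicate 5 lay so close to the rest of its group was not tested. It was counted as 1 animal, as labelled.

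The marker lists gave these counts. Of the genes tested in F1, F2 and F3, those called were 0, 0 and 0 for hippocampal neurons, 1, 0 and 0 for striatal neurons, 0, 0 and 1 (LEF1) for thalamic neurons, 0, 0 and 3 for astrocytes, 0, 0 and 1 for pericytes and smooth muscle, and 2, 0 and 0 for meningeal fibroblasts. Oligodendrocyte, microglia, endothelial and choroid plexus lists had 0 in each generation.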

Additional observations from a re-analysis of the deposited data

Results flagged for a closer look

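GNG7 in F3 sGC replicate 7 stood apart from its group at 198.4 CPM, where the nearest of the other sGC animals was at 215.5 CPM. PDE4B in F3 sGC replicate 1 stood apart on the other side at 88.6 CPM, with the nearest at 79.6 CPM. These were 2 far samples in 36 groups checked, and chance gives about 1 in 20.

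The sGC effect on GNAQ differed between F2 and F1 by -0.35 on the log2 scale, by the test of that difference.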

How the results depend on the processing

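With all libraries, the set had 2 genes called in F1, 0 in F2, 5 in F3, 9 in the mean effect, 1 for F2 against F1, and 0 for F3 against F1 and F3 against F2. The DESeq2 size factors and no filter on low counts gave the same counts. The likelihood ratio test called 4 in F1, 2 for F2 against F1 and 2 for F3 against F1. DESeq2 called 6 in F1, 1 in F2, 2 for F2 against F1 and 1 for F3 against F1. Without libraries 32 to 36 the counts were 1 in F1, 2 in F3, 1 in the mean effect, 2 for F2 against F1 and 3 for F3 against F1. Fitted together, F1 had 6 and F3 had 2, GNAI2 and RGS7. In fits added after seeing the data, those without F2 gave 9 in the mean of F1 and F3 and 0 for F3 against F1, and those also without libraries 32 to 36 gave 1 and 2. Single omissions gave 1 to 2 in F1, 0 in F2, 1 to 5 in F3, 6 to 11 in the mean effect, 0 to 2 for F2 against F1, 0 to 2 for F3 against F1 and 0 for F3 against F2. The count in F3 fell to 1 without F3 sGC replicate 5, where 288 of all genes were called. Among the log2 fold changes recomputed under these alternatives, those of genes called or of smallest p in a comparison, none changed direction. Other genes' directions were not recomputed. The cause of these moves was not tested. Over all genes, F1 called 237, against 598 by likelihood ratio, 658 by DESeq2, 68 with the block, 97 without libraries 32 to 36 and 852 fitted together, and F3 called 573 against 944 by DESeq2, 317 without libraries 32 to 36 and 334 fitted together. The mean effect called 971, against 54 without libraries 32 to 36. For F2 and the differences between generations, counts over all genes by the likelihood ratio test and DESeq2 are not given here.

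With the replicate block, 0 genes of the set were called in F1, 1 (GNG7) in F3 and 0 for F2 against F1, and 8 in the mean effect. Whether the numbers pair the animals cannot be told, as differently numbered animals were not compared. Same-numbered animals had correlations of deviations from -0.07 to 0.31 in F1 (2 of 5 over 0.1), -0.38 to 0.19 in F2 (1 of 6) and -0.30 to 0.03 in F3 (0 of 6). Depth limits genes with few reads, such as GNAT2.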
